A study of Danio rerio with 12 samples.

Results

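The regulators of the response to stress and food shortage followed here in zebrafish liver were junbb, gadd45ga, socs3a, tsc22d3, txnipa and ndrg1a. They are 6 of the 6684 genes named on the arrays and were measured by 10 of 12275 probes, 3 for tsc22d3, 2 each for gadd45ga and ndrg1a and 1 for each of the others. The genes were selected by name, from among those that had already been seen to be higher on 25% maize in these data. Their difference between the diets, in each sex as well, is therefore given below as a description with no test. The measures that the selection did not use were the difference between the sexes, the difference in diet change between the sexes and the way the genes varied together over pools of 1 group. The standard errors of all comparisons rest on the same spread within groups, so this spread may not be free of the selection.

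The samples were livers of adult wild type zebrafish of the AB strain, pooled per sex and replicate after 28 days on a diet with 25% maize or with 0% maize, in which wheat took the place of the maize. Fish on both diets were also given live Artemia, and the study asked whether maize altered the liver transcripts. Two-colour Agilent arrays compared 12 pools, 3 of each sex on each diet, on 12 arrays, and every pool was on 2 arrays with opposite dyes. A pool mixes several fish and, as the study states, hepatocytes with pancreatic cells. In such bulk samples, fewer cells of a type and less RNA per cell cannot be told apart.

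Liver adapts its transcripts quickly to stress hormones, cytokines and food supply. Immediate-early transcription factors such as those of the AP-1 family are switched on within minutes and need no new protein. Cytokines act through JAK kinases and STAT factors, and the SOCS proteins made in response shut this signal off. Cortisol acts through the glucocorticoid receptor. During fasting, insulin signalling falls and FOXO factors and the energy sensor AMPK raise genes of fuel release, and several of the same genes also respond to low oxygen or to DNA damage.

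The deposited values are log ratios of the dyes, read here as log2 and as Cy5 over Cy3. Neither the base nor the direction is given in the sources used here. The direction is called likely because all 470 values of 47 probes for vitellogenin, the yolk precursor of female liver, had the required sign on the 10 arrays of both sexes. Median ratios of the arrays ran from -0.05 to 0.04. Of the 12 arrays, 5 set males on 25% maize against females on 0%, 5 set females on 25% against males on 0%, 1 compared 2 female pools and 1 compared 2 male pools. The diets are compared on all 12 arrays and the sexes on the 10 arrays of both sexes, whereas the diet change within a sex is linked by the arrays of 1 sex. Levels of each pool were solved from the loop of arrays and are log2 values relative to the mean of the 12 pools. They show relative levels only, so that whether a transcript or a marker was present at all cannot be read from them.

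**Figure D1:**
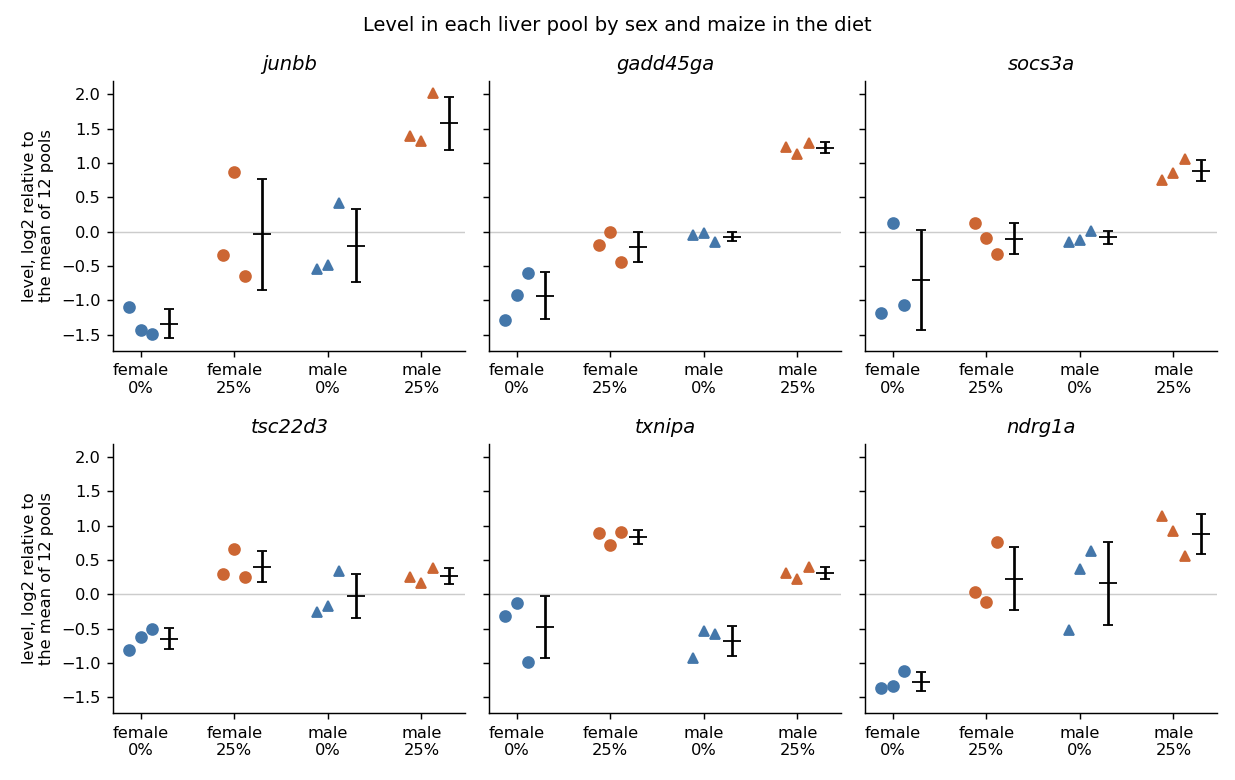
Level of each gene (vertical axis, log2 relative to the mean of the 12 pools) in the 3 pools of each sex and diet, in the order of their replicate numbers, with the group mean and SD in black. In males on 25% maize junbb lay between 1.32 and 2.02, above every other pool, while the highest txnipa levels were those of females on 25% maize, between 0.73 and 0.90.

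As a description of the selected contrast, the log2 change on 25% maize, averaged over the sexes, was 1.54 (standard error 0.25) for junbb, 1.15 (0.13) for txnipa and 1.11 (0.18) for ndrg1a. It was 1.00 (0.10) for gadd45ga, 0.79 (0.19) for socs3a and 0.67 (0.11) for tsc22d3. With the ratios read as log2, these correspond to folds between 1.59 and 2.91. Ordered from the largest rise, the genes held places 4, 8, 9, 14, 29 and 53 among the 6684, where the median of all genes was -0.01 and 2.14% of genes passed an adjusted p of 0.05 as higher on 25% maize. In females all 3 pools on 25% maize were above all 3 on 0% for 5 of the 6 genes (11.8% of all genes), in males for 4 (7.90% of all genes) and in both sexes for 3 (1.27% of all genes), namely junbb, gadd45ga and txnipa. These counts are for the mean of a gene's probes and follow from the selection.

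The transcription factor junbb is a subunit of AP-1 and one of the immediate-early genes. In females its level was -1.10, -1.43 and -1.49 in replicates 1, 2 and 3 on 0% maize and -0.35, 0.87 and -0.64 in replicates 2, 3 and 4 on 25% maize. In males it was -0.54, -0.48 and 0.42 in replicates 1, 3 and 4 on 0% maize and 1.40, 1.32 and 2.02 in replicates 1, 2 and 3 on 25%. The diets did not overlap in either sex, and replicate 3 of the females on 25% maize stood well above the other pools of its group. Of the 6 genes junbb had the largest SD within groups, 0.53, which 95.9% of genes were below.

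The arrays show how sex and diet added up. On the 5 arrays of males on 25% maize against females on 0%, the log2 ratio of junbb was between 2.42 and 3.44. On the 5 arrays of females on 25% maize against males on 0%, it ran from -1.13 to 1.28 with a median of 0.21. The array of female pools gave 0.52 and that of male pools 2.63. The fitted diet change was 1.12 (standard error 0.41) in females and 1.96 (0.41) in males, a difference of -0.84 (standard error 0.66) that did not pass (adjusted p = 0.771 from limma).

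**Figure D2:**
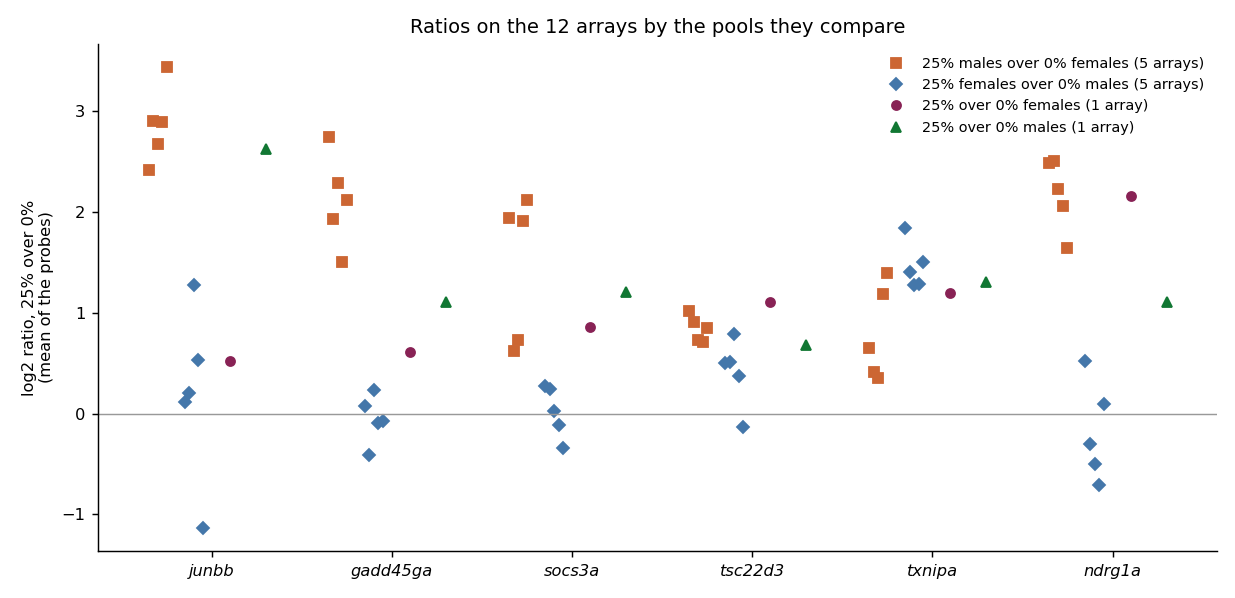
Log2 ratio of 25% over 0% maize (vertical axis, mean of the probes of a gene) on each of the 12 arrays, split by the sexes of the 2 pools compared. For junbb the 5 arrays of 25% males over 0% females lay between 2.42 and 3.44 and those of 25% females over 0% males between -1.13 and 1.28, and for txnipa the second kind was higher, with a median of 1.41 against 0.65.

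The second stress gene, gadd45ga, encodes a small growth arrest and DNA damage-inducible protein that binds stress-activated kinases. Its level in females was -1.28, -0.92 and -0.60 on 0% maize and -0.20, -0.01 and -0.44 on 25% maize, with replicates in the order given above. Male levels were -0.05, -0.02 and -0.15 on 0% and 1.23, 1.14 and 1.29 on 25% maize. The males on 25% maize stood 1.15 above the highest male on 0%, with SDs of 0.07 and 0.08 in the 2 groups. Females on 25% maize overlapped with males on 0%.

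The probes of gadd45ga did not give the same picture, and the narrow spread of the males is that of their mean. In replicates 1, 3 and 4 of males on 0% maize the first probe was at -0.32, -0.02 and 0.40. The second probe was at 0.22, -0.01 and -0.69 in them. At the first probe the lowest male on 25% maize was at 0.46. At the second, females on 0% maize reached -0.22 and those on 25% fell to -1.34, so that the female diets overlapped there. The first probe had a diet change of 1.19 (standard error 0.22) in females and 0.76 (0.22) in males. The second had 0.23 (0.34) in females and 1.83 (0.34) in males. On the array of 2 female pools the probes were at 1.40 and -0.19, and on that of 2 male pools at 1.13 and 1.09. Where males on 25% maize were set against females on 0%, the second probe ran from 1.63 to 3.53, and the first from 1.38 to 1.96. The mean of the probes thus joins a first probe that was higher on 25% maize in both sexes with a second whose higher level lay in males. The diet-by-sex difference was 0.42 (adjusted p = 0.777 over all probes) at the first probe and -1.60 (adjusted p = 0.412, unadjusted p = 0.0132) at the second, and -0.59 for the gene (adjusted p = 0.561 over all genes), all from limma and none of them past the threshold.

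**Figure D3:**
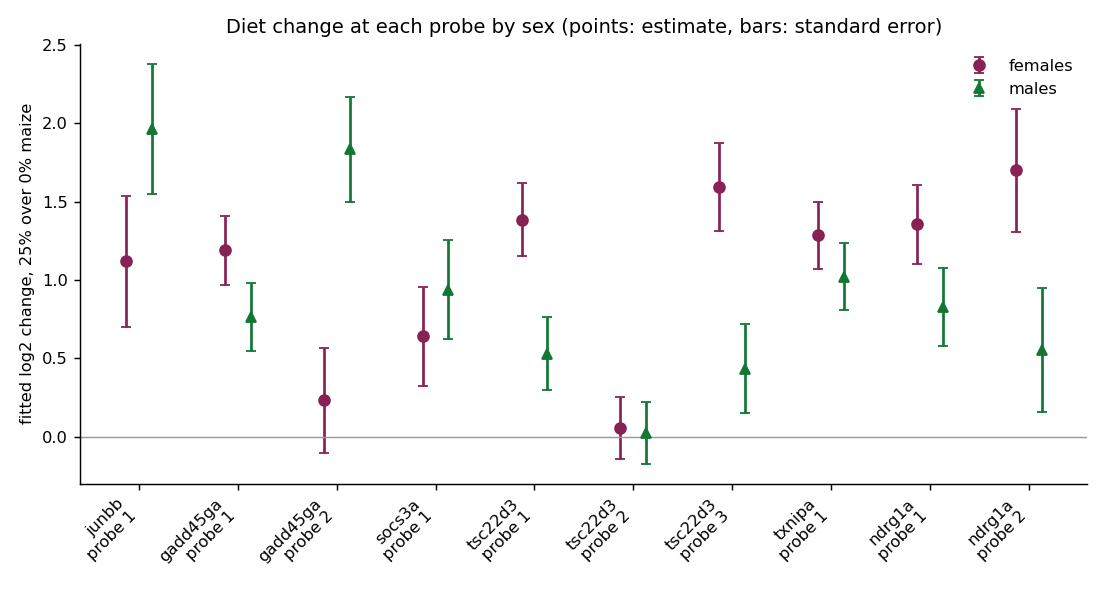
Fitted log2 change of 25% over 0% maize (vertical axis) for each of the 10 probes in females (circles) and males (triangles), with the standard error. At the second gadd45ga probe the change was 0.23 in females and 1.83 in males, and the second tsc22d3 probe lay at 0.06 and 0.03.

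The cytokine feedback inhibitor socs3a blocks JAK kinases. Its level in females was -1.18, 0.13 and -1.06 on 0% maize and 0.13, -0.10 and -0.33 on 25% maize. Male levels were -0.15, -0.12 and 0.02 on 0% and 0.75, 0.85 and 1.05 on 25%. Male diets did not overlap. Female diets did, through replicate 2 of the females on 0% maize, which was as high as the highest female on 25%. Both arrays that held this pool showed it, with ratios of 0.62 and 0.73 for males on 25% over this pool, whereas the other 3 arrays of that kind were between 1.91 and 2.12. The same pool differed in markers of other cells. The mean level of 9 leukocyte markers was 0.67 in it and -0.45 and -0.63 in the other females on 0%, that of 10 markers of bile duct and stellate cells was 0.18 against -0.41 and -0.55, and that of 12 ovary and oocyte markers was 1.24 against 2.58 and 2.55. Their part in the socs3a level was not tested. Without this pool the mean diet change was 1.00 in place of 0.79. This was the highest value with each pool left out in turn, and the lowest was 0.68. The diet change was 0.64 (standard error 0.31) in females and 0.94 (0.31) in males with all pools, a difference of -0.30 (adjusted p = 0.901 from limma).

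In mammals, TSC22D3 is the glucocorticoid-induced leucine zipper, a target of the glucocorticoid receptor that also responds to FOXO factors. The level of tsc22d3, as the mean of 3 probes, was -0.81, -0.61 and -0.50 in females on 0% maize and 0.30, 0.67 and 0.25 in females on 25%. In males it was -0.25, -0.17 and 0.34 on 0% and 0.25, 0.16 and 0.39 on 25% maize. The female diets were separate by 0.76, and the male diets overlapped because of replicate 4 on 0% maize. The fitted change was 1.01 (standard error 0.18) in females and 0.33 (0.18) in males. The difference of 0.68 (standard error 0.30) had an unadjusted p of 0.0416 and an adjusted p of 0.539 from limma over all genes.

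The mean of tsc22d3 understates probes 1 and 3, since probe 2 hardly moved. Probes 1 and 3 had diet changes of 0.96 (standard error 0.14) and 1.01 (0.17), and probe 2 had 0.04 (0.12). Probe 2 carries the older name zgc:64189 on the array and was joined to tsc22d3 as a synonym in the RefSeq gene table, whereas the other 2 match a tsc22d3 transcript by accession. Levels at probe 1 were -1.04, -0.88 and -0.62 in females on 0% maize and 0.57, 0.91 and 0.33 on 25%, and at probe 2 they were -0.40, 0.06 and -0.33 on 0% and -0.36, -0.11 and -0.15 on 25%. With the median of the probes the gene's diet change was 0.90. The diet-by-sex difference was 0.86 at probe 1, 0.03 at probe 2 and 1.16 at probe 3. Unadjusted p values were 0.0416, 0.923 and 0.0270 and adjusted ones 0.534, 0.987 and 0.496, from limma over all probes.

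The thioredoxin-interacting protein encoded by txnipa is an arrestin-like inhibitor of thioredoxin and, in mammals, of glucose uptake, and its gene responds there to glucose. The level of txnipa in females was -0.32, -0.12 and -0.98 on 0% maize and 0.89, 0.73 and 0.90 on 25%. The males had -0.93, -0.53 and -0.58 on 0% and 0.32, 0.22 and 0.40 on 25% maize. In each sex the diets were apart, by 0.84 in females and 0.75 in males, and the groups on 25% maize were narrow with SDs of 0.10 and 0.09. All 12 arrays had a higher txnipa level in the pool on 25% maize, with ratios between 0.36 and 1.84. The change was 1.28 (standard error 0.21) in females and 1.02 (0.21) in males, a difference of 0.26 that did not pass (adjusted p = 0.870 from limma).

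The last of the 6 genes, ndrg1a, belongs to the N-myc downstream-regulated family, and its mammalian counterpart rises in low oxygen. Its level in females was -1.37, -1.33 and -1.11 on 0% maize and 0.04, -0.11 and 0.76 on 25%. In males it was -0.52, 0.37 and 0.63 on 0% and 1.15, 0.92 and 0.56 on 25% maize. Female diets were 1.00 apart, and male diets overlapped slightly, with replicate 4 on 0% maize above replicate 3 on 25%. Averaged over the sexes, its 2 probes had similar diet changes, 1.09 (standard error 0.15) and 1.13 (0.24). In females and males they were 1.36 and 0.83 at the first probe and 1.70 and 0.55 at the second. At the first probe males on 0% maize reached 0.35, and the lowest on 25% was at 0.69. The male diets overlapped at the second, with replicate 4 on 0% at 0.93 and replicate 3 on 25% at 0.43. For the mean of the probes the change was 1.53 (standard error 0.31) in females and 0.69 (0.31) in males, and the difference of 0.84 did not pass (adjusted p = 0.676 from limma).

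The diet changes within a sex lean on the 2 arrays that compare pools of 1 sex. The junbb log2 diet change in females was 0.73 without replicate 4 on 25% maize. With arrays taken as independent it was 0.49, and the junbb log2 diet change in males was then 2.59. For tsc22d3 the change in females fell from 1.01 to 0.60 without replicate 1 on 0% maize and to 0.57 without replicate 4 on 25% maize, the pools of the female array. In males it was -0.09 without replicate 1 on 0% maize and -0.08 without replicate 3 on 25%, the pools of the male array. For ndrg1a the change in females was 0.83 and 0.86, and in males 0.07 and -0.04, without the same pools. The change averaged over the sexes moved less, between 0.59 and 0.78 for tsc22d3 and between 0.93 and 1.21 for ndrg1a with each pool left out in turn.

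Between the sexes, 5 of the 6 genes differed at an adjusted p under 0.05 from limma, where 70.3% of all genes did. Lower in females were 4 (32.0% of all genes) and higher was 1 (38.3% of all genes). The difference, female minus male, was -1.38 (standard error 0.25, adjusted p = 0.000512) for junbb and -1.12 (0.10, adjusted p = 5.13e-06) for gadd45ga. For ndrg1a it was -1.10 (0.19, adjusted p = 0.000327) and for socs3a -0.78 (0.19, adjusted p = 0.00354). With the ratios read as log2, males therefore had 2.61 times the female level of junbb and 1.72 times that of socs3a. The level of txnipa was 0.35 higher in females (0.13, adjusted p = 0.0316), and that of tsc22d3 did not pass at -0.24 (0.11, adjusted p = 0.0790). The count of 5 is near the share of all genes that passed.

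The sign of txnipa set it apart from the 4 genes that were lower in females, although its call was not secure. It did not pass without any of 7 pools, at adjusted p values between 0.0734 and 0.113. These were replicates 1 and 2 of females on 0% maize, 2 and 4 of females on 25%, 1 and 4 of males on 0% and 1 of males on 25%, where the difference was 0.32, 0.22, 0.29, 0.33, 0.28, 0.36 and 0.30 in this order. The difference of tsc22d3 passed without replicate 3 of females on 25% maize (-0.30, adjusted p = 0.0322) or replicate 2 of males on 25% (-0.27, adjusted p = 0.0494). The other 4 genes passed without each pool.

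Of the 10 probes, 8 differed between the sexes (69.5% of all probes). Both gadd45ga probes were lower in females, by -0.80 (adjusted p = 0.000305) and -1.44 (adjusted p = 0.000116), and so were both ndrg1a probes, by -0.92 and -1.27. Of the tsc22d3 probes only probe 2, the one that did not move with the diet, was lower in females, at -0.42 (adjusted p = 0.00921, all from limma over all probes). Probes 1 and 3 were at -0.24 and -0.05 and did not pass.

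Markers of several cell types differed strongly between the sexes as well. All 12 measured ovary and oocyte markers had higher estimates in females, with mean levels between 1.24 and 2.58 in female pools and between -2.15 and -1.21 in male pools. By the sign of the estimate, 10 of 11 hepatocyte markers were lower in females, with mean levels of -0.93 to -0.53 against 0.59 to 0.95 in males and a mean difference of -1.43. Exocrine pancreas (14 of 14 lower in females) and erythrocyte markers (6 of 6) had mean differences of -1.42 and -1.78. None of the 8 intestine, 10 bile duct and stellate or 9 leukocyte markers was higher in females. Their mean differences were -1.35, -0.62 and -0.38. Of the 6 islet markers 1 was higher in females, and the mean difference of that list was negative too. Every list but that of ovary thus had a lower mean in females. Pools of the sexes overlapped for leukocyte, islet and intestine markers. Female pools reached 0.67, 0.97 and 0.69 in these lists, and male pools went down to -0.04, -0.60 and -0.52. The part of these cell types in the sex differences of the 6 genes was not tested. Between the diets, the mean change in females and males was 0.31 and -0.07 for hepatocyte markers, 0.44 and -0.21 for exocrine pancreas, 1.45 and -0.70 for the 8 intestine markers, -0.66 and 0.40 for ovary and 0.61 and 0.56 for the 6 islet markers. For the other lists it was 0.20 and 0.49 (erythrocytes), -0.05 and 0.20 (leukocytes) and -0.09 and -0.02 (bile duct and stellate cells). Some of these means lean on 1 pool. Islet markers in females were at -0.87, -0.19 and -1.16 on 0% maize and at -0.86, -0.90 and 0.97 on 25%. Replicate 4, the highest there, was also highest among females on 25% in exocrine pancreas markers, at -0.01 against -0.78 in each of the others. The changes were not recomputed without this pool. Of all marker genes, 2 hepatocyte genes passed for diet, both higher on 25% maize (2.14% of all genes), and none was lower (2.80%). By the sign of the estimate averaged over the sexes, only 5 of the 11 hepatocyte markers were higher on 25% maize. So were 11 of 14 exocrine pancreas, 6 of 6 islet, 8 of 8 intestine and 6 of 6 erythrocyte markers. For ovary it was 2 of 12, for leukocytes 4 of 9 and for bile duct and stellate cells 5 of 10.

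The diet change did not pass as different between the sexes for any of the 6 genes, nor for any of the 6684 (0%) by limma, where 598 genes had an unadjusted p under 0.05. The number of genes was also 0 with arrays taken as independent, 4 with the replicate number as a block, 23 with pool levels as independent samples and 43 with tanks as variable as pools. It was 375 with array weights, whose estimation stopped before it converged. With arrays scaled to one spread it was 1874, and junbb was then the 1 of the 6 that passed. The standard errors, between 0.27 and 0.66 for the 6 genes, show how coarse this comparison was. By sign, the change was larger in males for junbb, gadd45ga and socs3a and larger in females for tsc22d3, txnipa and ndrg1a.

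Over the 12 pool levels, the 15 pairs of the 6 genes had Pearson correlations between 0.29 and 0.91, with the highest for junbb with gadd45ga and the lowest for gadd45ga with txnipa. These include the diet difference for which the genes were selected and are a description. Once the means of the 4 groups of sex and diet were removed, the correlations ran from -0.58 to 0.78 with a median of 0.17, and 10 of 15 were above 0. Each of the genes had a median correlation of deviations between -0.10 and 0.05 with the other 6678 genes.

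**Figure D4:**
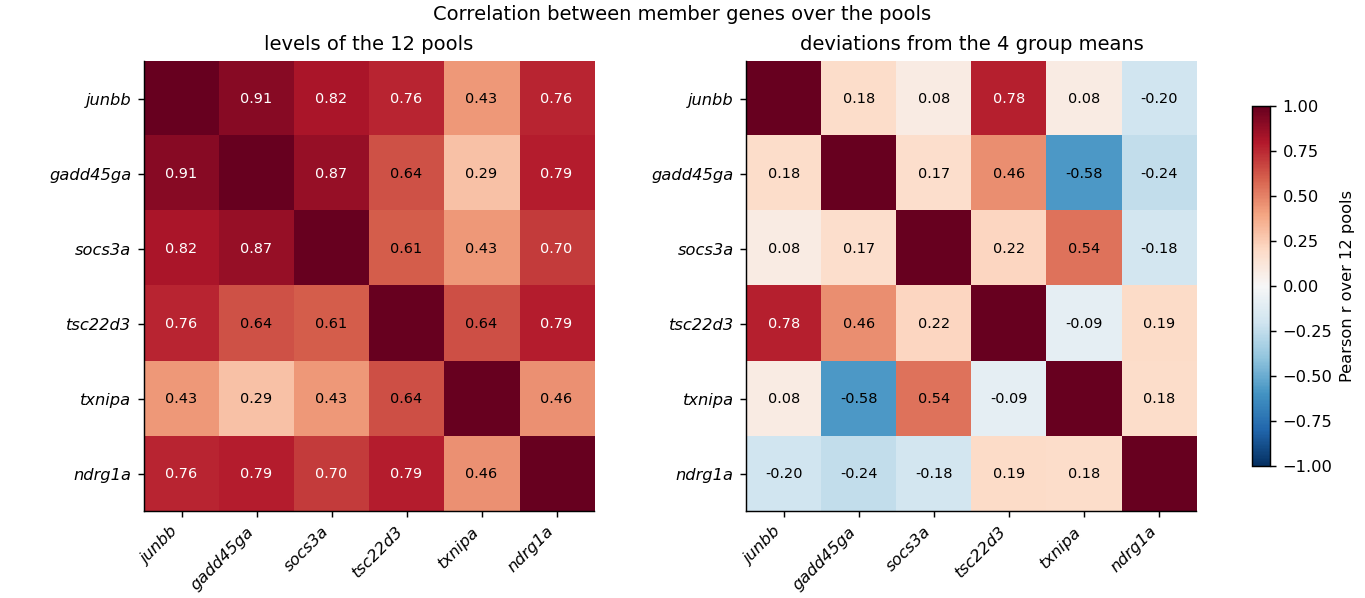
Pearson correlation between the 6 genes over the 12 pools, for the levels (left) and for the deviations from the mean of each sex and diet (right), with the colour running from -1 to 1. Leaving out the diagonal, the values on the left lie between 0.29 and 0.91, and on the right they run from -0.58 to 0.78.

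Within groups, junbb and tsc22d3 deviated together (r = 0.78, Spearman's rho = 0.75, n = 12 pools). The exact permutation test within groups, two-sided, gave p = 0.0394 for r and 0.0340 for rho, and after Benjamini-Hochberg adjustment over the 15 pairs these were 0.590 and 0.509. It was the 1 pair with an unadjusted p under 0.05, and none passed after adjustment. In the 6 female pools r was 0.65 and in the 6 male pools 0.95. Without the 2 pools farthest from the median of junbb, r was 0.49, and with each pool left out it lay between 0.69 and 0.92. Both genes were the highest of their group in replicate 3 of females on 25% maize, replicate 4 of males on 0% and replicate 3 of males on 25%. In females on 0% maize their order was opposite. There junbb was at -1.10, -1.43 and -1.49 and tsc22d3 at -0.81, -0.61 and -0.50 in replicates 1, 2 and 3.

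The other pairs were weaker or rested on few pools. For gadd45ga and txnipa r was -0.58 (rho = -0.50, exact permutation p = 0.394 and 0.216), and it was 0.04 without replicate 3 of the females on 0% maize. For socs3a and txnipa r was 0.54 (rho = 0.32, exact permutation p = 0.508 and 0.457), and it was -0.02 without replicate 2 of those females, the pool described above. For gadd45ga and tsc22d3 r was 0.46 (rho = 0.41, exact permutation p = 0.129 and 0.243). Their adjusted p was 0.729 or 0.735. Every r of gadd45ga uses the mean of its 2 probes, which moved in opposite ways within some groups. In males on 0% maize the first was at -0.32, -0.02 and 0.40 and the second at 0.22, -0.01 and -0.69. In females on 25% they were at -0.20, 0.43 and 0.46 and at -0.20, -0.45 and -1.34. No r was computed for single probes. Deviations of ndrg1a had r between -0.24 and 0.19 with the other 5 genes. The mean levels of marker lists also moved with some of the genes over the 12 pools. Deviations of socs3a had r of 0.90 with the markers of bile duct and stellate cells, 0.85 with those of leukocytes and -0.81 with those of ovary. For txnipa r was 0.67 with leukocyte, 0.59 with bile duct and stellate and -0.64 with ovary markers, and hepatocyte markers had r of 0.71 with tsc22d3 and 0.67 with ndrg1a. The r of deviations with the other 6678 genes spread widely. At a share of 0.05 from either end they were -0.78 and 0.69 for socs3a and -0.73 and 0.58 for txnipa. For tsc22d3 they were -0.49 and 0.49, and for ndrg1a -0.64 and 0.59. Replicate 2 of the females on 0% maize stood apart from its group in socs3a and in leukocyte, bile duct and stellate and ovary markers. No r with markers was recomputed without a pool, so how far these r rest on that pool was not tested. The part of these cells in the deviations was not tested. Neighbouring pools of the loop share an array, so that the 12 points are not fully independent. Male and female pools of a diet with 1 number were also read as coming from 1 tank. The methods place both sexes in each replicate, but no label names a tank.

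The genes whose levels over the 12 pools were most like each of the 6 were looked up by Pearson's r, which again includes sex and diet. Nearest to junbb were ppp1r15a (r = 0.95), which encodes the phosphatase subunit that ends the integrated stress response, igfbp1a (0.93), an insulin-like growth factor binding protein, and nfkbiab (0.92), an inhibitor of NF-kappa-B. Deviations within groups are part of these levels, so that a high r of deviations is partly given by the choice, and r of deviations with junbb was 0.85, 0.80 and 0.79. Nearest to the mean of the gadd45ga probes were coq8aa (0.95), zgc:162730 (0.94) and snx1a (0.93), with r of deviations of 0.12, 0.55 and 0.38. Nearest to socs3a were dnajc22 (0.93), gnai1 (0.93) and fmo5 (0.92), with r of deviations of 0.80, 0.87 and 0.68.

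For tsc22d3 the nearest were wdr45 (r = 0.92), which acts in autophagy, the peroxisomal protease gene lonp2 (0.91) and ppp1r3ca (0.89), a glycogen-targeting subunit of protein phosphatase 1, with r of deviations of 0.60, 0.56 and 0.74. For txnipa they were lgals3bp.2 (0.86), cyp2u1 (0.84) and bdh2 (0.83), the weakest likeness of the 6, and no gene had r above 0.9 with it. Their r of deviations was 0.42, 0.48 and 0.74. For ndrg1a they were sypl2a (0.95), zgc:92275 (0.93) and bco2l (0.93), a carotenoid-cleaving enzyme, with r of deviations of 0.79, 0.64 and 0.55, and 16 genes had r above 0.9. No gene was among the nearest of more than 1 of them.

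The close relatives of the 6 genes mostly stayed near 0 between the diets. Unlike the 6 genes, they were not selected as higher on 25% maize, so a smaller change than that of the 6 is partly given by the selection. Of 17 measured of 32 listed relatives, 2 were higher on 25% maize (2.14% of all genes) and none was lower (2.80% of all genes) by limma, and their median change was 0.04. Both belong to the arrestin family of txnipa. The change was 0.48 (standard error 0.11, adjusted p = 0.0260) for arrdc2, with both of its probes past the threshold (and the gene in 13 of 24 alternatives), and 0.33 (0.07, adjusted p = 0.0182) for arrdc3b (12 of 24 alternatives). The arrestins arrdc3a, at 0.53 (0.25, adjusted p = 0.316), and arrdc1a, at 0.00, did not pass.

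The near copy of socs3a, socs3b, changed with the diet by -0.01 (standard error 0.09, limma's adjusted p being 0.985) and had a sex difference of -0.01. The cytokine inhibitors socs1a, cisha and cishb were at 0.18, -0.07 and -0.15. Among growth arrest genes gadd45aa was at -0.18 and gadd45ba at 0.17. Also counted with the relatives was gadd45gip1, which encodes a protein that binds GADD45, at -0.08. The AP-1 subunit jun was at 0.11 (standard error 0.16, adjusted p = 0.831), beside 1.54 for junbb. The paralogs tsc22d1 and tsc22d2 were at -0.13 and 0.06, and ndrg2, ndrg3a and ndrg3b at 0.14, -0.07 and 0.04. None of these 13 passed for diet.

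Between the sexes 4 of the 17 relatives were higher (38.3% of all genes) and 5 lower in females (32.0%), a smaller share in all than the 70.3% of all genes that differed. The largest difference was that of ndrg2, at -1.41 (standard error 0.08) and in the same direction as ndrg1a, whereas ndrg3b was 0.24 higher in females. The level of tsc22d1 was 0.81 higher in females (0.09), that of arrdc3a 1.09 lower in females (estimate -1.09, 0.26) and that of socs1a 0.40 higher (0.14). The others that passed were arrdc1a (0.57), ndrg3a (-0.60), jun (-0.43) and cishb (-0.32). The difference of jun did not pass without any of 7 pools, that of socs1a without any of 4 and that of ndrg3b without replicate 4 of males on 0% maize (adjusted p = 0.0502), and their signs stayed. No relative passed for the diet-by-sex difference by limma, and 1, ndrg2, had an unadjusted p under 0.05.

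**Figure D5:**
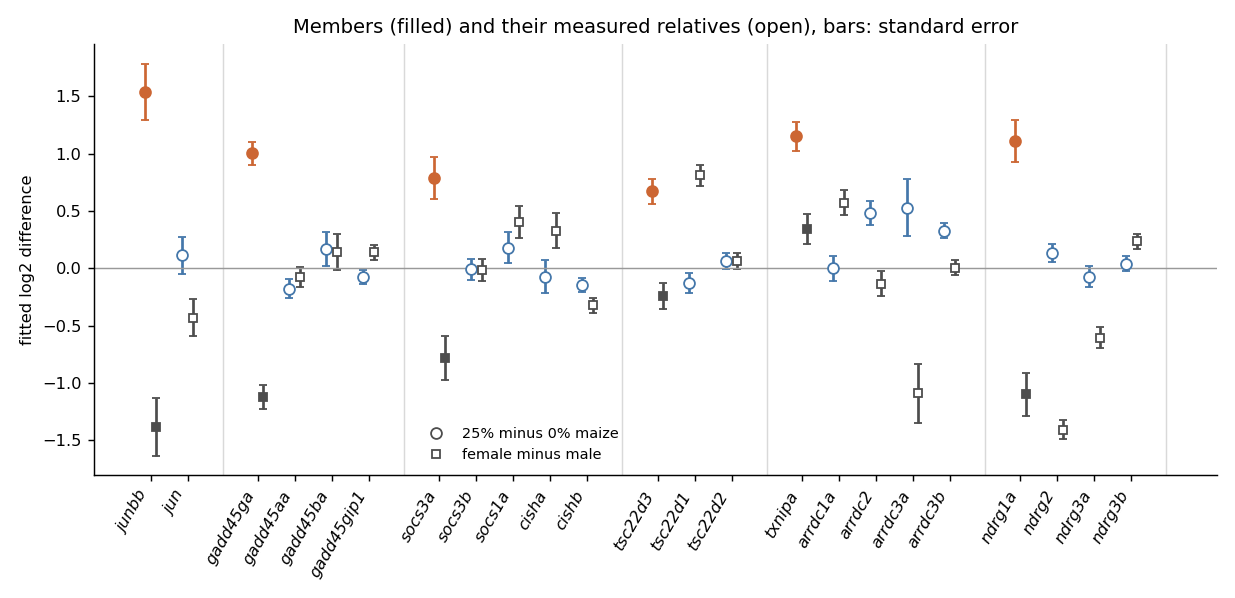
Fitted log2 difference (vertical axis) between the diets, 25% minus 0% maize (circles), and between the sexes, female minus male (squares), for the 6 genes (filled) and their measured relatives (open), grouped by family, with the standard error. The group of gadd45ga includes gadd45gip1, which encodes a protein that binds GADD45. The diet change of the relatives ran from -0.18 to 0.53 and that of the 6 genes, which were selected as higher on 25% maize, from 0.67 to 1.54.

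Of 25 measured of 61 other immediate-early and AP-1 genes, 2 were higher on 25% maize (2.14% of all genes) and none was lower (2.80%). The AP-1 partner fosab rose by 0.95 (standard error 0.13, adjusted p = 0.00459 from limma), by 0.46 in females and 1.44 in males, and was 1.22 lower in females (-1.22, 0.14). The transcription factor mycb rose by 0.92 (0.15, adjusted p = 0.00751), by 1.15 in females and 0.69 in males. Both probes of each passed, and the genes passed in 23 and 22 of 24 alternatives. Between the sexes 15 of the list were lower (32.0% of all genes) and 2 higher in females (38.3% of all genes), among them zfp36l1b, an mRNA decay factor, at -1.20.

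Of 22 measured of 55 genes of cytokine signalling through JAK and STAT, none passed for diet by limma (2.14% of all genes higher and 2.80% lower). An unadjusted p under 0.05 was found for 3 of them, and for 1150 of all 6684 genes. Changes over this list ran from -0.32 to 0.38. In females 6 were higher (38.3% of all genes) and 9 lower (32.0%), among them the kinase genes pim1 at 1.03 and jak1 at -0.83. Of 34 measured of 44 glucocorticoid receptor and responsive genes, none was higher (2.14% of all genes) and 1 was lower (2.80%) on 25% maize. This was tat, tyrosine aminotransferase, a liver enzyme induced by glucocorticoids in mammals, which fell by 0.64 (standard error 0.09, adjusted p = 0.00473) with all 5 probes past the threshold and the gene in 23 of 24 alternatives. In females 9 of the list were higher (38.3% of all genes) and 13 lower (32.0%), with hsd11b2, which inactivates cortisol, at -2.17 and the metallothionein mt2 at 2.56.

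Of 39 measured of 71 fasting, FOXO and AMPK genes, 4 were higher (2.14% of all genes) and 1 was lower (2.80%) on 25% maize. The growth factor binding proteins igfbp1b and igfbp1a, which limit insulin-like growth factors and in mammals rise in fasting, rose in the fit of limma by 1.99 (standard error 0.40, adjusted p = 0.0180) and 1.24 (0.32, adjusted p = 0.0476). Of the igfbp1a probes only the first passed, with adjusted p of 0.0424, 0.0643 and 0.0888 from limma over all probes. The autophagy gene map1lc3a rose by 0.52 (0.12, adjusted p = 0.0345) and acadvl, an enzyme of fatty acid oxidation, by 0.33 (0.08, adjusted p = 0.0396), the latter with 2 of 3 probes past the threshold. The growth factor gene igf1 fell by 0.41 (0.08, adjusted p = 0.0170), while neither of its probes passed over all probes. Of 24 alternatives igfbp1b passed in 17, igfbp1a in 10, map1lc3a in 9, acadvl in 8 and igf1 in 13. In females 30 of the list were lower (32.0% of all genes) and 3 higher (38.3%), with the gluconeogenic genes pck2 and fbp1b at -1.72 and -1.57.

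Of 30 measured of 54 hypoxia genes, 3 were higher (2.14% of all genes) and 1 was lower (2.80%) on 25% maize. Beside the 2 binding proteins, which this list shares with the fasting genes, bnip3, a mitochondrial protein of autophagy, rose by 0.91 (standard error 0.15, adjusted p = 0.00763 from limma). The glycolytic enzyme pgam1a fell by 0.59 (0.12, adjusted p = 0.0207). They passed in 21 and 14 of 24 alternatives. Between the sexes 6 were higher (38.3% of all genes) and 16 lower in females (32.0%), with tpi1b at -1.26 and the hypoxia-inducible factor epas1b at -0.84.

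Of 44 measured of 75 genes of DNA damage and the integrated stress response, 3 were higher (2.14% of all genes) and 2 lower (2.80%) on 25% maize. Those higher were ppp1r15a at 0.68 (standard error 0.12, adjusted p = 0.00870 from limma), ccng2, a cyclin that restrains growth, at 0.61 (0.13, adjusted p = 0.0207) and cdkn1bb, a cell cycle inhibitor, at 0.39 (0.08, adjusted p = 0.0170). The second probe of cdkn1bb did not pass (adjusted p = 0.113 from limma over all probes). Lower were atf4a, the central transcription factor of the integrated stress response, at -0.34 (0.07, adjusted p = 0.0168), with neither of its 2 probes past the threshold, and xbp1, a factor of the unfolded protein response, at -0.68 (0.17, adjusted p = 0.0427), which is named because it completes the count and was chosen after its value was seen. Of 24 alternatives ppp1r15a passed in 17, ccng2 in 11, cdkn1bb in 13 and atf4a in 12. In this list 25 genes were higher (38.3% of all genes) and 6 lower in females (32.0%), with the peroxiredoxins, which remove peroxides, at opposite signs, prdx4 at 1.44 and prdx2 at -1.13. Median diet changes of these 6 lists lay between -0.07 and 0.10, beside -0.01 for all genes. None of their genes passed for the diet-by-sex difference by limma, where up to 5 of a list had an unadjusted p under 0.05.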

How the data were processed

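The deposited table, which the authors made with GenePix Pro for the spots and limma for the statistics, holds 1 log2 ratio of Cy5 over Cy3 per probe and array. For its base, direction, background correction, normalization and probe filter, and for the version of limma, the sources used here give nothing. The supplementary description of these steps that the methods point to was not used here, and neither were scanner files. The methods count 4 replicates per diet and the labels name 3 pools per sex and diet. Symbols came from the platform annotation, updated through the RefSeq gene table of assembly GRCz12tu (10307 probes with 1 symbol, 1968 with none, 0 with several). No coordinates are given, since the files name no genome build.

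A gene took the mean of its probes. The model, run in limma 3.58.1 (R 4.3.3), had terms for sex, diet, their interaction and the dye, after whitening for shared pools and tanks (variance ratios to the array error of 2.91 and 0 by restricted maximum likelihood). P-values were adjusted by Benjamini-Hochberg over all genes or probes, with a threshold of 0.05. Steps were tested on simulated data. Replicate numbers were not used to pair pools across diets, and the methods describe replicates as separate tanks. A tank was read from the diet and the replicate number, as no label names one. The number of arrays limits the precision.

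The 6 genes, the lists and the tests were chosen with earlier results of these data known. Named were the 6 genes, all measured relatives, up to 4 genes of each other list with the smallest p for diet and 2 for sex among those past the threshold, and the 3 genes most alike to each of the 6. Alternatives changed the variance model, dye term, scaling, probe summary, moderation and weights, and left out each pool.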

Additional observations from a re-analysis of the deposited data

How the results depend on the processing

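The number of the 6 genes that differed between the sexes stayed between 4 and 6 under all 24 alternatives, and with each pool left out it also ran from 4 to 6. The count for the diet-by-sex difference was 0 with each pool left out (0 to 0) and 1 with arrays scaled to one spread, where the junbb diet-by-sex difference was -4.97 (adjusted p = 0.0316). That scaling enlarges the ratios of the 2 arrays of 1 sex, whose spread was the smallest (median absolute deviations of 0.24 and 0.36, against 0.45 to 0.99), and it also turned the diet change of junbb in females to -0.82 and the diet-by-sex difference of txnipa to -1.34. The latter was -0.10 with arrays taken as independent, and that of gadd45ga was 0.42 with 1 probe per gene, the first. With pools left out the diet-by-sex difference ran from -1.83 to -0.25 for junbb, from -1.03 to -0.26 for gadd45ga, from -0.63 to 0.0611 for socs3a, from -0.21 to 1.38 for tsc22d3, from -0.0027 to 0.42 for txnipa and from -0.35 to 2.27 for ndrg1a. It changed sign without replicate 1 of males on 25% maize for socs3a, replicate 4 of females on 25% for tsc22d3 and ndrg1a, replicate 1 of females on 0% for ndrg1a and replicate 1 of males on 0% for txnipa. The diet change in males ran from -0.0905 to 0.78 for tsc22d3 and from -0.0432 to 1.18 for ndrg1a. Apart from the construction of the scaling and of the 1 probe, the cause was not tested. The median correlation of deviations, 0.17, was 0.70 with sex and diet not removed, 0.78 with only the sex means removed and 0.85 with arrays scaled, and it ran from -0.0344, without replicate 1 of the males on 0% maize, to 0.29 with pools left out.

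Same-numbered pools of 1 sex on the 2 diets had correlations of their deviations of 0.21, 0.27, -0.12 and 0.18 over genes. As 1 of these 4 was below 0.1 and no label names a shared batch, the numbers were not taken to pair the pools, and whether same-numbered pools share a batch was not tested. Female and male pools of a diet with 1 number, read as 1 tank, had correlations of -0.13, 0.03, -0.01 and -0.30. With the replicate number as a block, 4 of the 6 genes differed between the sexes, txnipa no longer passing at 0.29 (adjusted p = 0.100), and 0 for diet by sex, and the median correlation was 0.0786. The block called 54 genes as higher and 69 as lower on 25% maize, where 143 and 187 were called without it. These counts were 0 and 0 with arrays scaled and 543 and 670 without replicate 2 of females on 0% maize. Among the alternatives, added after seeing the data, for the diet calls of named list genes, all 16 genes kept their direction in 24 of 24, and the number that passed ran from 8 for acadvl to 23 for fosab and tat. The estimation of array weights stopped before it converged.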
